A study of Apostichopus japonicus with 12 samples.

Results

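Intestinal gene expression of Apostichopus japonicus, a sea cucumber and thus an echinoderm that lives on the sea floor, was compared between 3 animals held at 26 °C for 48 h and 3 control animals kept at 18 °C. These were 6 of the 12 RNA-seq libraries of a heat stress study, chosen by their labels alone, and every gene model in the deposited table was considered. The warm animals were brought from 18 °C to 26 °C by 2 °C per hour, and the time was counted from the moment the water reached 26 °C. Animals weighed about 100 g, each library came from the intestine of a single animal, and the labels gave the controls no sampling time and neither group a sex or strain. Because the controls carried no time, 48 h of holding and 48 h of warmth cannot be told apart in this comparison. The 3 animals held at 26 °C for 6 h were compared with the 48 h animals directly, and all 12 libraries entered the filter and the shared estimate of the spread.

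When proteins unfold in warm cells, heat shock factor switches on genes for molecular chaperones, which bind unfolded chains, keep them from clumping and help them refold. Small heat shock proteins hold unfolded chains, HSP70 and its constant relative HSC70 refold them with ATP, HSP90 matures signalling proteins, and a separate set of chaperones serves secreted proteins in the endoplasmic reticulum. Apostichopus japonicus is a cool-water animal that stops feeding and aestivates in warm summers, when its gut shrinks.

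Values were FPKM, here read fragments divided by gene length and by a scaling factor per library. That factor was proportional to the library's size factor and not to its reads on genes. A size factor is the median ratio of a library's reads to each gene's geometric mean over the 12 libraries, for genes read in all. Size factors were 0.914, 1.29 and 2.70 in control animals 1 to 3 and 0.675, 1.80 and 2.02 at 48 h. Differences are given on the log2(FPKM + 1) scale, which understates the change of low genes. Each library was bulk tissue, in which fewer cells of a type and less RNA per cell cannot be told apart. The reads on genes behind the values were 3109296, 2665272 and 3713358 in control animals 1 to 3 and 1788303, 2926724 and 2629072 in the 48 h animals. After thinning to 1700000 reads, 15118, 17186 and 18434 genes were detected in the controls and 15949, 18413 and 19031 at 48 h. Control animal 1 and 48 h animal 1 thus showed the fewest genes of their groups. Pearson correlations of log2 values were 0.735 to 0.764 among controls, 0.751 to 0.836 among 48 h animals and 0.723 to 0.799 between the groups, so animals of different groups were about as alike as animals of the same group.

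With limma, 0 of 18729 genes, those averaging 0.5 FPKM or more across the 12 libraries, passed an adjusted p of 0.05 (0%), and the smallest adjusted p was 0.343. At an unadjusted p under 0.05, 852 genes differed (4.55%), 416 higher at 48 h (2.22%) and 436 lower (2.33%). Voom on the reads recovered from the FPKM also gave 0 genes, but it used the same size factors as the FPKM and so did not test the scaling. Differences below are therefore described by their values, and none is a gene that passed the test, except where the 48 h and 6 h animals are compared. The precision of 3 animals against 3 was limited. At the median standard error of 0.70, the 95% interval reached 1.51 log2 units to each side, or 2.84-fold, and for 0 genes did it lie within 2-fold in both directions. It lay within 4-fold for 8955 genes (47.8%) and within 8-fold for 16099 (86.0%). The 48 h animals all stood above all controls in 1093 genes (5.84%) and all below in 908 (4.85%), and these shares are the background against which the gene groups are read.

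**Figure D1:**
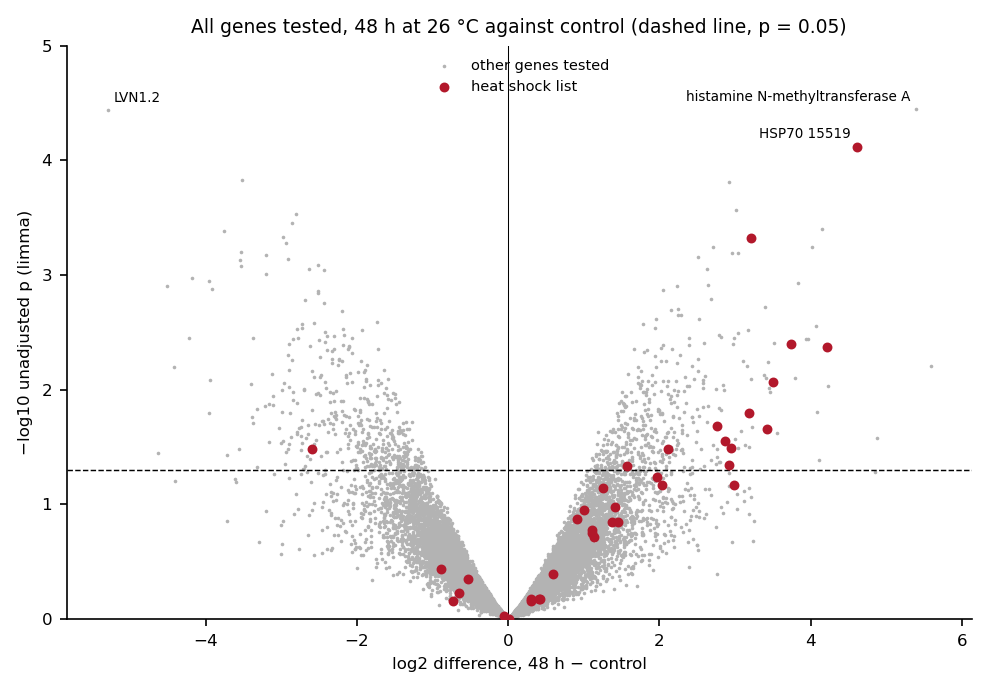
Each point is one of the 18729 genes tested, with the log2 difference between 48 h at 26 °C and control on the x axis and the negative log10 of limma's unadjusted p on the y axis; red points are the 37 tested members of the heat shock list. Histamine N-methyltransferase A and HSP70 BSL78_15519 lie farthest up on the right and LVN1.2 on the left, while most red points lie to the right of 0.

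Cytosolic heat shock proteins made up the gene group that stood farthest from control. Of 40 models, 37 were tested, 31 were higher at 48 h and 6 lower, and the median log2 difference was 1.37, against 0.03 over all genes. In 18 of the 37 (48.6%) all 48 h animals lay above all controls, against 5.84% of all genes, and in 0 did they all lie below, against 4.85%. An unadjusted p under 0.05 (limma) was reached by 13 higher members and 1 lower member of the 37, against 2.22% and 2.33% of all genes, and 0 passed the adjusted test. Without control animal 1 and 48 h animal 1, an alternative chosen after seeing the data, the 48 h animals lay above the controls in 21 members (56.8%), where the share over all genes was 18.7%, and below them in 3 (8.11%), where it was 15.7%. List members were found by words in the gene descriptions.

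HSP70 is the inducible member of its family. Its model BSL78_15519 (scaffold MRZV01000570.1, 221474 to 225378, plus strand) had 7.64, 1.43 and 23.6 FPKM in the controls and 212, 152 and 233 at 48 h. The lowest 48 h animal was more than 6 times the highest control, and the log2 difference was 4.61 (SE 0.83, 95% interval 2.83 to 6.40) with an adjusted p of 0.474. Its neighbour on the same scaffold, BSL78_15518, had 4.87, 1.46 and 13 FPKM in the controls and 177, 19.4 and 16.2 at 48 h. In this copy only 48 h animal 1 stood far above the controls, and the other 2 lay just above control animal 3, for a difference of 2.76 (SE 1.06). The 8 models described as heat shock protein 70 were all higher at 48 h, by 1.97 to 4.61 log2 units, and 6 of them did not overlap with control. A pair of neighbouring low copies was also apart from control: BSL78_19537 had 0, 2.46 and 0.389 FPKM in the controls and 15.6, 14.6 and 13 at 48 h. BSL78_19536 had 0.359, 0 and 0.364 FPKM in the controls and 8.26, 10.9 and 6.8 at 48 h. Reads of such near-identical copies may have been split between models in the authors' counting, so values of single copies are uncertain. HSP70 models together took 0.106% ± 0.0328 of reads at 48 h and 0.00988% ± 0.0139 in controls (SD, n = 3 each).

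HSP26 is a small heat shock protein, which binds unfolded chains without ATP. Model BSL78_21248 (scaffold MRZV01000980.1, 70357 to 71151, plus strand) had 9.77, 12.5 and 25.1 FPKM in the controls and 139, 111 and 193 at 48 h. These groups were well apart, with a difference of 3.21 (SE 0.70, 95% interval 1.70 to 4.73) and an adjusted p of 0.63. The neighbouring models BSL78_13662, BSL78_13663 and BSL78_13664 were less even. BSL78_13662 had 1.82, 18.9 and 53.8 FPKM in the controls and 425, 70.6 and 243 at 48 h. BSL78_13663 had 4.43, 0 and 21.3 FPKM in the controls and 347, 26.7 and 79 at 48 h. In each, 48 h animal 1 was highest and animal 2 lowest, and animal 2 lay only a little above control animal 3. In BSL78_13664, at 1.42, 0 and 8.61 FPKM in the controls and 175, 3.95 and 10.5 at 48 h, 48 h animal 2 lay below control animal 3. All 5 HSP26 models were higher at 48 h, by 2.87 to 4.21 log2 units, and 4 of them did not overlap with control.

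The constitutive and larger chaperones stood less far from control; those named here outside the rule for named genes were chosen after their values were seen. HSC70, present in unstressed cells, is described by 15 models, of which 12 were tested and 8 were higher, with a median of 0.30 and a range from -2.60 to 1.57. The most abundant, BSL78_08507, had 210.0, 128 and 236 FPKM in the controls and 266, 394 and 404 at 48 h, a difference of 0.91 (SE 0.57) without overlap. Its neighbour BSL78_08508 had 53.7, 36.2 and 119 FPKM in the controls and 142, 142 and 161 at 48 h, again without overlap. The low copy BSL78_03201 went the other way, with 0, 9.06 and 44.9 FPKM in the controls and 0, 1.08 and 0 at 48 h, and the control values themselves ran from 0 upward. HSP90-alpha 3 (BSL78_26676) had 56, 127 and 146 FPKM in the controls and 248, 467 and 742 at 48 h, a difference of 2.11 (SE 0.89). All 3 of its 48 h animals were above all controls, as were those of Cdc37-like BSL78_11299, which loads kinases onto HSP90, at 36.4, 25.9 and 42.8 FPKM in the controls and 77.7, 69.6 and 78.4 at 48 h. These 2 genes, like the next, kept their groups apart. STIP1-like BSL78_07970, which joins HSP70 to HSP90, had 7.94, 16.9 and 13.8 FPKM in the controls and 34.7, 27.3 and 39.7 at 48 h. AHA1-like BSL78_20250, which speeds the ATPase of HSP90, had 8.92, 11.9 and 23.1 FPKM in the controls and 21.5, 31.3 and 43.8 at 48 h, where control animal 3 lay above 48 h animal 1. All 4 helpers of HSP90 were higher at 48 h, and 3 of them kept their groups apart. Alpha-crystallin B (BSL78_12794), another small heat shock protein, overlapped between the groups, with 278, 194 and 86.8 FPKM in the controls and 391, 357 and 272 at 48 h. BAG3 (BSL78_05946), which exchanges the nucleotide on HSP70, also overlapped, with 0.442, 0.314 and 3.59 FPKM in the controls and 15.6, 3.36 and 7.18 at 48 h.

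**Figure D2:**
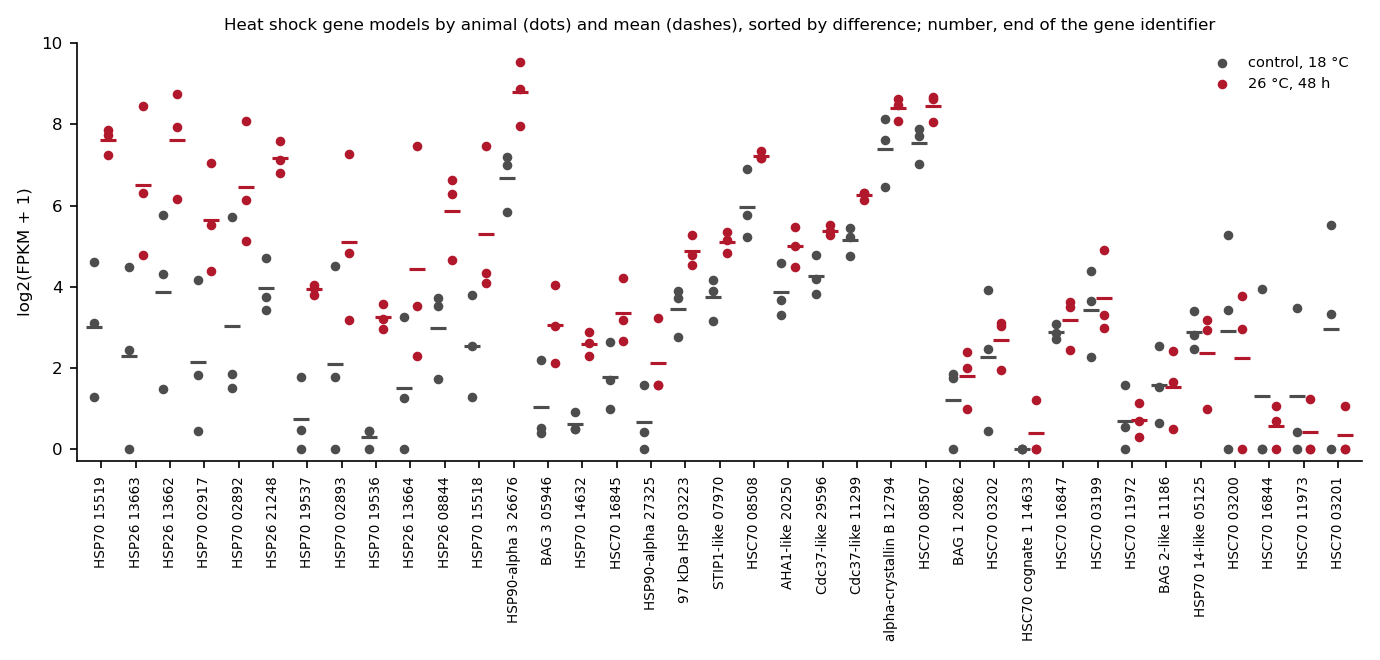
Each pair of columns is a tested heat shock gene model, ordered by its log2 difference, with the value in every control animal (grey) and 48 h animal (red) on the log2(FPKM + 1) scale and dashes at the means of 3. The red points lie above the grey ones in most models at the left, and the groups mix in the low HSC70 copies at the right.

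Animals differed within each group in the same members. Among the 37 tested models the highest control was animal 3 in 25, animal 2 in 6 and animal 1 in 5, and the highest 48 h animal was animal 1 in 16, animal 3 in 16 and animal 2 in 5. The list took 0.052, 0.0982 and 0.231% of reads on genes in control animals 1 to 3 and 0.347, 0.438 and 0.799% at 48 h, so the groups did not overlap. The exact two-sided permutation p of 0.1 is the smallest that 3 animals against 3 allow. The difference of means, 0.401 percentage points, was 0.265 without 48 h animal 3.

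Most of these models were higher still at 6 h. The heat shock list took 1.38, 2.3 and 6.22% of reads in the 6 h animals, above all 48 h animals (exact permutation p = 0.1), and 34 of the 37 models were lower at 48 h than at 6 h, with a median of -1.81 against 0.12 over all genes. In 15 of them all 48 h animals lay below all 6 h animals, against 4.76% of all genes, and 0 of these passed the adjusted test. HSP70 BSL78_15519 had 1518, 1673 and 7735 FPKM at 6 h, a 48 h minus 6 h difference of -3.78 (adjusted p 0.372). HSP26 BSL78_21248 had 681, 1069 and 2338, a difference of -3.05 (adjusted p 0.372). For both genes the 48 h animals thus lay between the controls and the 6 h animals without overlap with either.

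The cytosolic chaperonin, a ring that folds actin and tubulin, with prefoldin, which hands chains to it, showed another pattern. Of 18 tested members 12 were higher and 6 lower than control, with a median of 0.19, and 1 did not overlap above control (5.56%, against 5.84%). The median 48 h minus 6 h difference was -1.64, against 0.12 over all genes, and 9 of 18 lay below the 6 h animals without overlap, against 4.76% of all genes. T-complex protein 1 subunit beta BSL78_11119 had 1.9, 5.58 and 30.8 FPKM in the controls, 97.1, 91.6 and 157 at 6 h and 43.7, 15.8 and 36.9 at 48 h. Control animal 3 lay within the 48 h values. The list's share of reads was 0.019, 0.0486 and 0.0817% in the controls and 0.039, 0.062 and 0.0972% at 48 h, with overlap (exact permutation p = 0.5).

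Chaperones of the endoplasmic reticulum, where secreted and membrane proteins fold, were the other group far from control. All 21 models were tested, and 16 were higher and 5 lower at 48 h. Without overlap, 7 (33.3%) lay above control and 0 below, against 5.84% and 4.85% of all genes. The median difference was 0.78, and 0.37 without control animal 1. GRP78 (BSL78_16330), the HSP70 relative of this compartment, had 29.6, 64.5 and 98.1 FPKM in the controls and 465, 186 and 288 at 48 h, a difference of 2.33 (SE 0.84, 95% interval 0.52 to 4.15) and an adjusted p of 1. Calreticulin, a calcium-binding chaperone of glycoproteins, has 3 models, all higher at 48 h, the least by 0.07 log2 units. BSL78_00928 had 3.08, 7.67 and 7.82 FPKM in the controls and 85.6, 29.3 and 27.1 at 48 h (log2 difference 2.63, SE 0.62, adjusted p 0.634). BSL78_13982 had 62.9, 166 and 246 FPKM in the controls and 437, 581 and 694 at 48 h (log2 difference 2.02, SE 0.62, adjusted p 0.92). In both, each warm animal exceeded each control. ERp29 (BSL78_27087), which helps secretory proteins fold, had 1.21, 6.03 and 5.11 FPKM in the controls and 8.19, 13.5 and 23.2 at 48 h, also apart. The list took 0.0182, 0.0797 and 0.188% of reads in the controls and 0.204, 0.321 and 0.462% at 48 h (exact permutation p = 0.1, the smallest possible). In contrast to the cytosolic list, its share at 6 h, 0.306, 0.457 and 0.198%, overlapped with that at 48 h (exact permutation p = 0.7). By members it also leaned below 6 h, with 16 of 21 lower and 5 higher at 48 h. The median 48 h minus 6 h difference was -0.24, against 0.12 over all genes. Without overlap, 3 of the 21 lay below the 6 h animals and 2 above, against 4.76% and 7.87% of all genes. Without control animal 1 and 48 h animal 1, 9 of the 21 did not overlap above control (42.9%, against 18.7%) and 2 did not below (9.52%, against 15.7%).

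**Figure D3:**
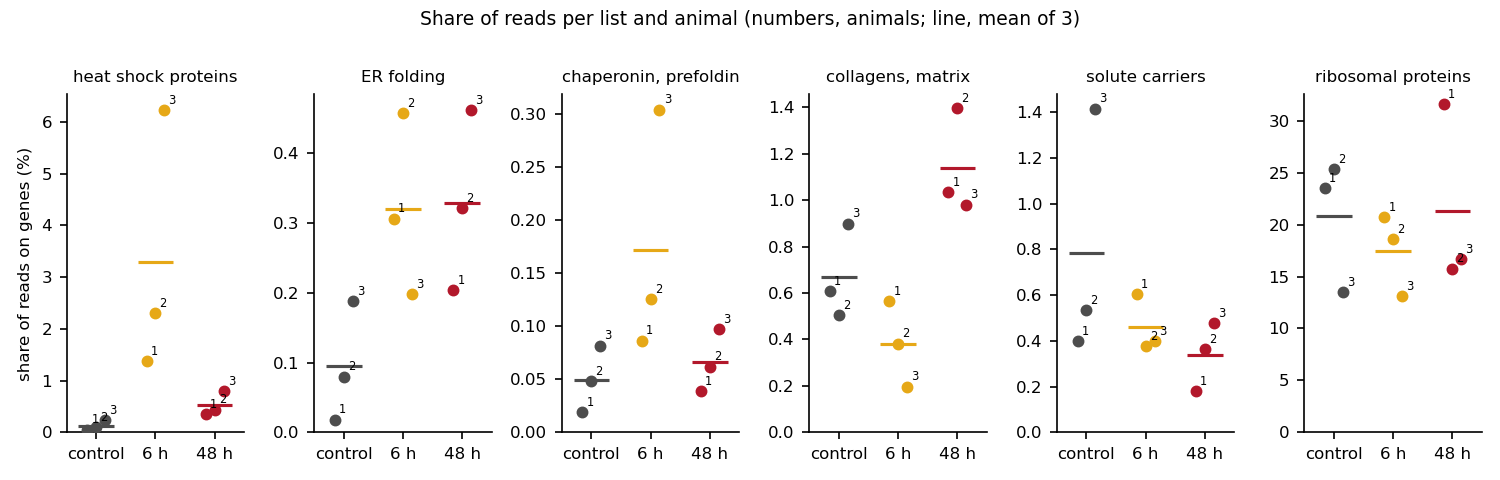
Share of reads on genes taken by 6 gene lists in each control, 6 h and 48 h animal, in percent, with numbers for the animals and lines for the means of 3; each panel has its own axis from 0. Heat shock shares at 48 h lie between those of controls and 6 h animals, endoplasmic reticulum (ER) shares overlap between 6 h and 48 h, and matrix shares are highest at 48 h.

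The intestine holds several cell types. Markers of absorptive gut cells took 0.222, 0.472 and 0.328% of reads in the controls and 0.139, 0.31 and 0.616% at 48 h, so the labelled tissue's markers were present in all 6 libraries. Muscle markers took 0.246, 0.323 and 0.274% and 0.268, 0.473 and 0.685%, with overlap (exact permutation p = 0.3). Cilia markers took 0.0457, 0.0416 and 0.0863% and 0.102, 0.0972 and 0.0666% (exact permutation p = 0.2), neuron markers 0.067% to 0.117% and 0.0609% to 0.129%, and germ line markers 0.0264% to 0.0515% and 0.0427% to 0.048%. The coelomic list, which holds the yolk proteins and ferritin, took 34, 15.2 and 17.3% and 8.85, 23.4 and 13.7%. Of 38 tested muscle genes 18 were higher and 20 lower, of 113 neuron genes 62 and 51, of 43 germ line genes 25 and 18, of 66 coelomic genes 34 and 32, and of 86 absorptive genes 46 and 40. The part of these shifts in the gene groups below was not tested.

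Collagens and other matrix proteins also took shares of reads that did not overlap between the groups, the third such list of 36. These were 0.607, 0.506 and 0.899% of reads in the controls and 1.04, 1.4 and 0.981% at 48 h (exact permutation p = 0.1, the smallest possible), and 48 h animal 3 lay just above control animal 3. Of 134 tested members 77 were higher and 57 lower, and 8 higher and 0 lower reached an unadjusted p under 0.05 (limma), against 2.22% and 2.33% of all genes. Without overlap, 16 (11.9%) lay above control and 2 (1.49%) below, against 5.84% and 4.85% of all genes. The median difference was small at 0.13, moving to 0.06 without 48 h animal 2 and to 0.32 without control animal 3. Perlecan, the heparan sulfate proteoglycan of basement membranes, has 5 models, all higher at 48 h and 3 without overlap. Of these BSL78_11834 had 0, 2.99 and 0.473 FPKM in the controls and 5.69, 10.6 and 5.37 at 48 h (log2 difference 2.13, SE 0.74). BSL78_17848 had 2.33, 1.65 and 0.786 FPKM in the controls and 5.25, 4.32 and 8.75 at 48 h (log2 difference 1.45, SE 0.54). Short-chain collagen C4 BSL78_22096 had 0, 5.2 and 2.65 FPKM in the controls and 35.3, 14 and 8.72 at 48 h. Laminin-like epi-1 BSL78_04541, of a family of basement membrane glycoproteins, had 0.238, 0.507 and 0.321 FPKM in the controls and 1.93, 4.94 and 1.93 at 48 h. In both, 48 h animals lay above all controls, with adjusted p-values of 1. Other models of these names did not all go up. Of 11 tested short-chain collagen C4 models 7 were higher and 4 lower, and of 6 laminin-like epi-1 models 4 were higher and 2 lower. Against the 6 h animals the matrix list was higher at 48 h by a median of 0.48, with 14 of 134 members above the 6 h animals without overlap against 7.87% of all genes. Its share at 6 h was 0.565, 0.382 and 0.197% (exact permutation p = 0.1).

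Matrix-cutting enzymes and their inhibitors had no common direction, with 22 of 38 tested members higher, 16 lower and a median of 0.08. A tissue inhibitor of metalloproteinases, metalloproteinase inhibitor 1-like BSL78_28150, had 17.6, 17.8 and 18.1 FPKM in the controls, which were nearly equal, and 95.2, 104 and 36.1 at 48 h. The difference was 1.94 (SE 0.54, 95% interval 0.79 to 3.09) with an adjusted p of 0.866, and the 6 h animals, at 59.8, 80.4 and 72.3 FPKM, overlapped with the 48 h animals. Of 7 tested metalloproteinase inhibitor 1 models 4 were higher and 3 lower. Secreted proteases of the ADAMTS family stood on both sides of control. ADAMTS 7 (BSL78_05775), a secreted protease of matrix, had 5.58, 5.85 and 10.2 FPKM in the controls and 32.8, 58.2 and 15.4 at 48 h. Its relative ADAMTS 6 (BSL78_20603) was below control, with 3.04, 3.46 and 4.52 FPKM in the controls and 0, 0.617 and 0.275 at 48 h. Of 2 tested ADAMTS 7 models 1 was higher and 1 lower, and of 2 tested ADAMTS 6 models 2 were lower. Fibrinogen-like protein A BSL78_28149, of a family of fibrinogen-domain proteins, had 0, 0.994 and 0.472 FPKM in the controls and 24, 2.13 and 43.3 at 48 h. Of the 50 tested models with that description 26 were higher and 24 lower, so the family had no common direction.

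Histamine N-methyltransferase A BSL78_25642 (scaffold MRZV01001488.1, 73189 to 76286, plus strand), named after an enzyme that inactivates histamine in vertebrates, had the smallest p among named genes higher at 48 h. It had 2.66, 0 and 0.15 FPKM in the controls and 110.5, 92.6 and 29.2 at 48 h. Even 48 h animal 3, the lowest of its group, was far above control animal 1. Its log2 difference was 5.40 (SE 0.90, 95% interval 3.47 to 7.33) with an adjusted p of 0.343. It passed the test under a scaling to a common sum (adjusted p 0.0391) and with the animal number as a block (0.0239). The numbers did not pair the animals, however, as residuals of control and 48 h animals with the same number correlated at -0.0087 to 0.0483. At 6 h it had 39.1, 13.7 and 2.63 FPKM, which overlapped with both groups. Of 6 tested models with this description 5 were higher and 1 lower.

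Photolyase BSL78_25254, an enzyme that repairs ultraviolet damage in DNA with light energy, had 4.86, 2.3 and 1.09 FPKM in the controls, 0 in all 6 h animals and 41.6, 36.1 and 5.85 at 48 h. The 48 h animals lay above both groups, although 48 h animal 3 was close to control animal 1. The difference from control was 2.69 (SE 0.69, 95% interval 1.21 to 4.16) with an adjusted p of 0.772, and from 6 h 4.47 (adjusted p 0.0733, and 0.00932 without 48 h animal 3). Other genes in this set were enzymes of sugars and lipids. Glucose-6-phosphate 1-epimerase BSL78_05933, which interconverts the forms of that sugar phosphate, had 0.72, 0 and 0 FPKM in the controls and 17.5, 16.8 and 28.6 at 48 h (log2 difference 4.16, SE 0.89, adjusted p 0.63). Fatty acid desaturase 6-like BSL78_04511, of a family that puts double bonds into fatty acids, had 1.04, 0 and 0 FPKM in the controls and 7.99, 11.6 and 7.52 at 48 h (log2 difference 2.96, SE 0.67). Alpha-methylacyl-CoA racemase BSL78_06345, which readies branched fatty acids for oxidation, had 0, 0 and 0.858 FPKM in the controls and 5.16, 4.51 and 2.87 at 48 h (log2 difference 2.05, SE 0.51). Controls of all 3 genes were at or near 0 and did not overlap with the warm animals. The lipid list as a whole was even, with 151 of 272 tested members higher, 121 lower and a median of 0.07.

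Several other genes with small p above control had low levels. IQ and ubiquitin-like domain protein BSL78_18003, known from cilia in other animals, had 0, 0.291 and 0.139 FPKM in the controls and 12.2, 8.1 and 4.26 at 48 h. Short-chain dehydrogenase SDR family member 4-like BSL78_23438, an enzyme that reduces carbonyl groups, had 0, 0.371 and 0.177 FPKM in the controls and 7.78, 4.24 and 5.42 at 48 h. Selenoprotein O-like BSL78_13245, a mitochondrial enzyme that attaches AMP to other proteins, had 4.74, 0 and 0.481 FPKM in the controls and 15.4, 8.18 and 9.64 at 48 h. All 3 were low genes whose highest control remained below the lowest warm animal. Trichoplein-like BSL78_12481, a keratin filament-binding protein, had 0.79, 1.12 and 0.712 FPKM in the controls and 5.7, 4.0 and 6.89 at 48 h. THAP domain protein 7-like BSL78_14962, of a family of DNA-binding proteins, had 1.64, 3.5 and 1.52 FPKM in the controls and 11.7, 11.6 and 9.99 at 48 h. Their adjusted p-values ran from 0.585 to 0.866.

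Among genes below control, LVN1.2 BSL78_07316 (scaffold MRZV01000201.1, 75050 to 79498, plus strand), named after a gene of the embryonic gut of the sea urchin Lytechinus variegatus, had the smallest p. It had 190.5, 64.6 and 229 FPKM in the controls and 0.793, 0.594 and 15.6 at 48 h. The highest 48 h animal, animal 3, stayed below the lowest control, and the other 2 were under 1 FPKM. The difference was -5.30 (SE 0.88, 95% interval -7.20 to -3.40) with an adjusted p of 0.343, and without 48 h animal 3 it was -6.40 and passed the test (adjusted p 0.0340). At 6 h it had 38.7, 80.2 and 154 FPKM, above all 48 h animals and overlapping with the controls, and the 48 h minus 6 h difference was -4.45 (adjusted p 0.305). Of 4 models with this description 1 was higher and 3 lower.

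Genes of lysosomes and of traffic to them included several with large differences downward. Cathepsin L2 BSL78_16663, a lysosomal cysteine protease, had 3001, 783 and 1044 FPKM in the controls and 31.5, 186 and 252 at 48 h. The groups did not overlap, and the difference was -3.55 (SE 0.82, 95% interval -5.31 to -1.78) with an adjusted p of 0.63. It took a mean of 0.190% of reads in controls and 0.0302% at 48 h. All 5 models described as cathepsin L were also lower, with log2 differences from -1.56 to -0.32, each with overlap. Cathepsin F BSL78_18197 went the other way at low levels, with 0, 0 and 0.433 FPKM in the controls and 4.34, 2.93 and 0.579 at 48 h. AP-3 sigma-1 BSL78_01882, part of a vesicle coat that delivers cargo to lysosomes, had 8.09, 8.22 and 8.21 FPKM in the controls, which were nearly equal, and 0, 0 and 1.04 at 48 h (log2 difference -2.85, SE 0.60, adjusted p 0.63). At 6 h AP-3 sigma-1 stood at 0, 0 and 3.05, close to the 48 h values. Over the whole lysosome and autophagy list 43 of 114 tested members were higher and 71 lower, with a median of -0.21 that was -0.08 without control animal 2, and 7 (6.14%) did not overlap below control against 4.85% of all genes.

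Solute carriers, which move nutrients and ions across membranes, leaned downward, with 111 of 280 tested members higher, 169 lower and a median of -0.30. At an unadjusted p under 0.05 were 17 lower members and 4 higher ones of the 280, where the shares over all genes were 2.33% and 2.22%, and 11 (3.93%) did not overlap below control, against 4.85% of all genes. The median was -0.05 without 48 h animal 1. Amino acid transporter B(0+) BSL78_16004, which takes up neutral and basic amino acids with sodium and chloride, had 339, 87.9 and 373 FPKM in the controls and 16, 58.8 and 13.1 at 48 h. Control animal 2 was nearest to the warm animals, and the difference was -3.21 (SE 0.77, 95% interval -4.86 to -1.56) with an adjusted p of 0.656. SLC35G1 BSL78_15908, of a family named for nucleotide sugar transport, had 42.9, 12.8 and 31.6 FPKM in the controls and 6.28, 2.64 and 5.1 at 48 h. Of 15 tested models with that description 13 were lower. The sodium-dependent multivitamin transporter BSL78_10996 had 96.8, 0 and 7.17 FPKM in the controls and 0 in all 48 h animals, but its control animal 2 was at 0 too.

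Digestive enzymes had no common direction. Of 50 tested proteases 26 were higher and 24 lower, and of 55 carbohydrases and lipases 34 were higher and 21 lower, with medians of 0.03 and 0.12. The protease median was -0.33 without control animal 3 and again without 48 h animal 3, and the other ran from 0.00 without control animal 3 to 0.36 without 48 h animal 1. Trypsin-like serine protease BSL78_00549 had 0.494, 909 and 2.0 FPKM in the controls and 399, 352 and 744 at 48 h. Control animal 2 was above every warm animal while the other 2 controls were near 0, so its difference of 4.88 (SE 1.96) came with overlap. Trypsin-1-like BSL78_12514 had 0, 0 and 0.206 FPKM in the controls and 9.05, 4.93 and 3.29 at 48 h, without overlap. Sucrase-isomaltase BSL78_01550, a brush border enzyme of mammals that splits disaccharides, had 0.198, 0.704 and 1.47 FPKM in the controls and 2.41, 8.33 and 5.01 at 48 h. Maltase-glucoamylase BSL78_22386 had 0 in all controls and 3.17, 1.19 and 1.59 at 48 h. These low genes were all above control. Carboxypeptidase B BSL78_26567, which trims basic residues from peptides, was below, with 72.1, 82.3 and 153 FPKM in the controls and 34.2, 30.1 and 50.2 at 48 h, and of its 10 models 5 were higher and 5 lower. Of 3 tested maltase-glucoamylase models 2 were higher and 1 lower, and the lower 1 did not overlap with control. The 2 tested sucrase-isomaltase models were 1 higher and 1 lower.

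Immune receptors and signalling genes of the Toll, NLR and NF-kappa-B list included 46 of 110 tested members higher and 64 lower, with a median of -0.05. Under scaling to a common sum it was 0.08, where the median of all genes was 0.16. In 7 (6.36%) the 48 h animals all lay below the controls and in 0 all above, against 4.85% and 5.84% of all genes. NLRP12-like BSL78_11541, which carries the NACHT domain of intracellular immune sensors, had 30.5, 15.6 and 34.8 FPKM in the controls and 0, 0.579 and 0 at 48 h (log2 difference -4.51, SE 1.11, 95% interval -6.91 to -2.12, adjusted p 0.689). It was nearly at 0 in all warm animals. An interleukin 17-like protein, BSL78_20623, of a family of inflammatory signals, had 8.14, 7.72 and 6.88 FPKM in the controls and 0.918, 0 and 4.59 at 48 h. Of 42 tested NLRC4-type models (NLR family CARD domain-containing protein 4) 16 were higher and 26 lower. Receptor interacting kinase 1b BSL78_11825, named after a kinase of death receptor signalling, had 49.5, 9.03 and 42.9 FPKM in the controls, 0, 0 and 3.35 at 6 h and 0, 1.29 and 2.87 at 48 h (log2 difference -3.77, SE 0.81, adjusted p 0.63).

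The apoptosis list had 31 of 78 tested members higher and 47 lower, with a median of -0.27, which was -0.11 without control animal 3. BIRC7-B BSL78_27306, an inhibitor of apoptosis, had 30.6, 27.9 and 65.5 FPKM in the controls and 4.5, 9.76 and 21.9 at 48 h, below without overlap. Caspase-6 BSL78_20895, a protease that carries out cell death, had 2.04, 7.25 and 5.34 FPKM in the controls and 17.3, 21.5 and 15.7 at 48 h and stood above control in all warm animals.

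Lectins, complement and scavenger receptors had 80 of 147 tested members higher and 67 lower, with 11 (7.48%) above control without overlap and 4 (2.72%) below. Over all genes these shares were 5.84% and 4.85%. Without control animal 1 and 48 h animal 1 both were 16.3%, against 18.7% and 15.7% of all genes. Hepatic lectin-like BSL78_00795, a sugar-binding protein, had 3.25, 4.63 and 8.8 FPKM in the controls and 42.3, 19.1 and 29.4 at 48 h (log2 difference 2.27, SE 0.68, adjusted p 0.915). Each warm animal exceeded each control. Lectin BSL78_26384 showed the same order, with 4.26, 7.35 and 6.37 FPKM in the controls and 19.8, 20.3 and 26.4 at 48 h. Complement component 3-2 BSL78_25841, of the protein family that tags microbes, was below control, with 10.4, 4.72 and 39.6 FPKM in the controls and 0.562, 2.74 and 1.5 at 48 h, while of its 9 tested models 4 were higher and 5 lower.

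Genes for RNA binding and splicing included abundant members that stood below control. The hnRNP A1-like 3 model BSL78_26499, which binds nascent transcripts, had 161, 219 and 186 FPKM in the controls and 51.8, 25 and 29.4 at 48 h (log2 difference -2.44, SE 0.58, 95% interval -3.68 to -1.19, adjusted p 0.634). FUBP1 BSL78_04781, known in humans for binding DNA upstream of MYC, had 62.6, 91.9 and 67.7 FPKM in the controls and 4.02, 12.2 and 17.1 at 48 h (log2 difference -2.80, SE 0.58, 95% interval -4.06 to -1.55, adjusted p 0.63). PUF60 BSL78_01323, a splicing factor, had 476, 436 and 269 FPKM in the controls and 164, 77.1 and 49.3 at 48 h (log2 difference -2.15, SE 0.68). In all 3 the lowest control was above the highest warm animal. The splicing list as a whole was centred, with 53 of 112 tested members higher, 59 lower and a median of -0.02. Without overlap, 10 (8.93%) were below control and 4 (3.57%) above, where the shares over all genes were 4.85% and 5.84%.

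Several genes of other kinds were also among those with the smallest p below control. P2X4 BSL78_19672, a channel opened by ATP, had 11.1, 4.52 and 4.03 FPKM in the controls and 0, 0.403 and 0 at 48 h. It was far lower in each warm animal than in any control. AFG3-like 2 BSL78_19455, a protease of the mitochondrial inner membrane, had 5.44, 32 and 20.9 FPKM in the controls and 2.01, 0 and 0 at 48 h. A second model of that name, BSL78_25719, was the reverse, with 5.67, 2.49 and 3.89 FPKM in the controls and 9.71, 8.29 and 10.7 at 48 h, so that the name as a whole had no direction. The rest were enzymes, a heme carrier and a transcription factor. Paraoxonase BSL78_11958, an esterase, had 28.7, 16.9 and 32.9 FPKM in the controls and 1.92, 4.13 and 5.43 at 48 h. Heme-binding protein 2-like BSL78_15171 had 12.8, 3.39 and 16.8 FPKM in the controls and 0, 0.302 and 0.941 at 48 h. H2.0-like homeobox BSL78_18466, a transcription factor, had 4.58, 5.71 and 6.97 FPKM in the controls and 0, 0.581 and 0 at 48 h. Galactosylceramide sulfotransferase BSL78_21866, which makes sulfatide, had 32.5, 44.7 and 19.9 FPKM in the controls and 13.4, 1.96 and 2.99 at 48 h. None of these groups overlapped. Other models of the same names did not all go down. Of 12 tested galactosylceramide sulfotransferase models 7 were higher and 5 lower, and of 6 paraoxonase models 3 were higher and 3 lower. Of 4 heme-binding protein 2 models 1 was higher and 3 lower.

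**Figure D4:**
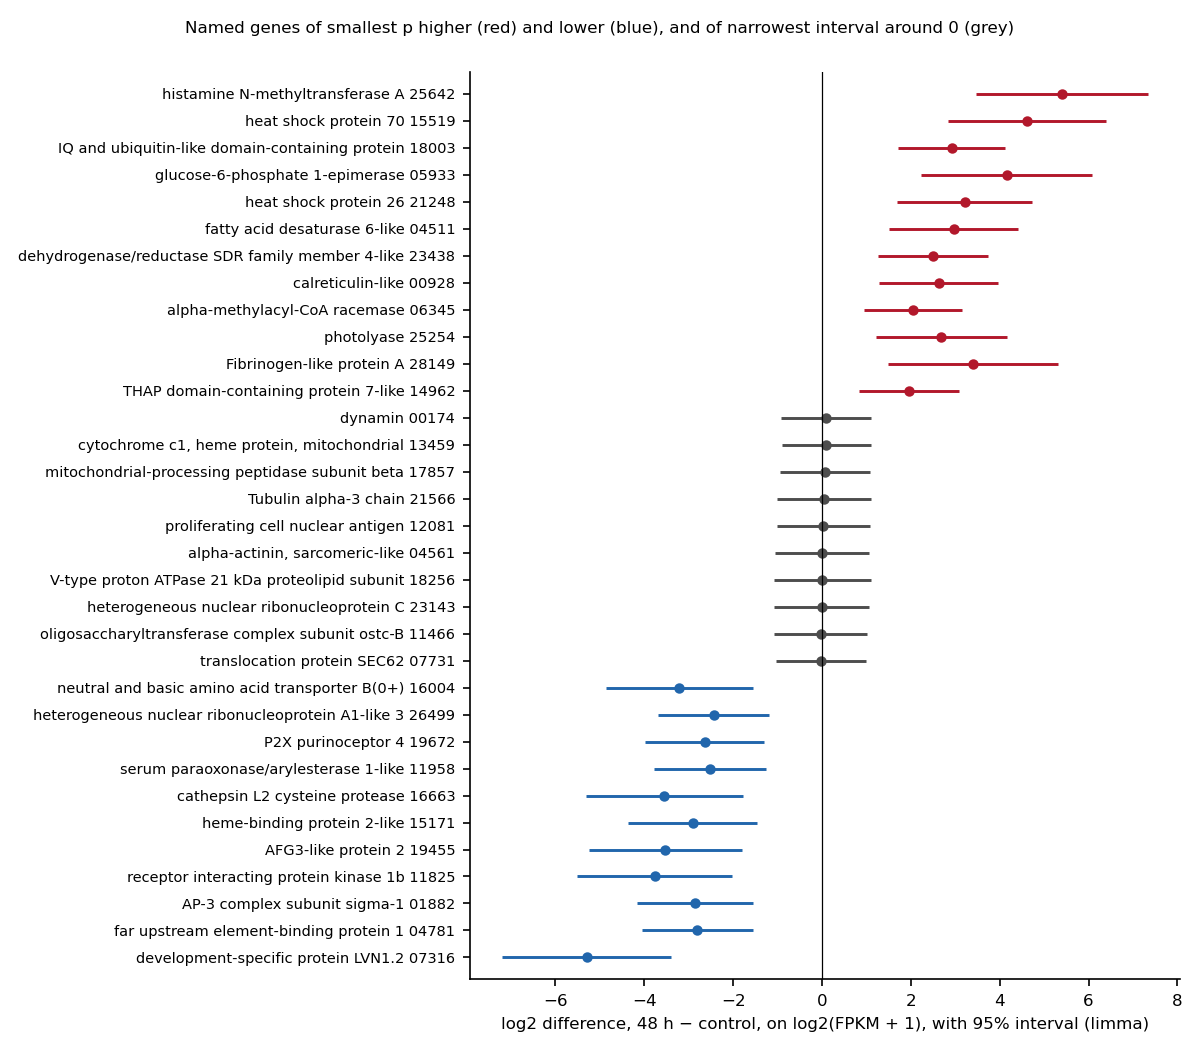
Log2 difference between 48 h and control with its 95% interval from limma for 12 named genes of small p above control (red), 11 below (blue) and the 10 abundant named genes with the narrowest interval around 0 (grey); numbers end the gene identifiers. Red and blue intervals keep to their own side of 0, and grey ones reach about 1 log2 unit to each side.

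Some abundant genes were measured well enough to bound their difference. Among named genes with a control mean of at least 50 FPKM, the 10 with the narrowest 95% interval around 0 had bounds no farther than 1.11 log2 units from 0. SEC62 BSL78_07731, which helps proteins enter the endoplasmic reticulum, had 83.8, 54 and 48.9 FPKM in the controls and 72.2, 55.4 and 52 at 48 h, with an interval from -1.04 to 0.98. PCNA BSL78_12081, the clamp of DNA replication, had 93.2, 95.6 and 74.6 FPKM in the controls and 97.6, 73.4 and 99.9 at 48 h, with an interval from -1.02 to 1.09. The groups overlapped in each. Cytochrome c1 BSL78_13459, of the respiratory chain, had 74.6, 82.6 and 68.8 FPKM in the controls and 70.5, 93.9 and 78.2 at 48 h. Alpha-actinin BSL78_04561, which bundles actin, had 247, 306 and 196 FPKM in the controls and 329, 244 and 187 at 48 h. The others were dynamin BSL78_00174, the beta subunit of the mitochondrial processing peptidase BSL78_17857, tubulin alpha-3 BSL78_21566, hnRNP C BSL78_23143, a V-ATPase subunit BSL78_18256 and an oligosaccharyltransferase subunit BSL78_11466.

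Ribosomal proteins, which took 23.5, 25.3 and 13.5% of reads in the controls and 31.6, 15.8 and 16.7% at 48 h (exact permutation p = 1), followed single animals. Of 67 tested members 17 were higher and 50 lower, with a median of -0.30. In 0 did all 48 h animals lie above or below all controls, against 5.84% and 4.85% of all genes. The highest control was animal 1 in 59 of 67 and the highest 48 h animal was animal 1 in 60. The median turned to 0.22 without control animal 1 and to 0.11 without 48 h animal 3, and reached -0.95 without control animal 3. Ferritin BSL78_19566, which stores iron and took a mean of 3.70% of reads at 48 h, had 95716, 58961 and 27985 FPKM in the controls and 41561, 49989 and 37624 at 48 h, with a difference of -0.34 (SE 0.57, 95% interval -1.57 to 0.90). Its groups overlapped, as did those of melanotransferrin BSL78_14264, of the transferrin family of iron carriers, at 1902, 3455 and 5034 FPKM in the controls and 5715, 3713 and 3101 at 48 h. An unnamed model, BSL78_24556, stood at 30384, 22517 and 15846 FPKM at 48 h and 4329, 10146 and 10598 in the controls. Of the 10 genes with the largest share of reads at 48 h, it was the 1 whose groups did not overlap. Over all genes that share was 10.7% in either direction, so 1 of 10 is near the background.

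Cilia genes, of the beating hairs that line echinoderm epithelia, had 48 of 66 tested members higher and 18 lower, with a median of 0.22, which moved to 0.54 without 48 h animal 3. Of these 6 (9.09%) lay above control without overlap and 1 (1.52%) below, against 5.84% and 4.85% of all genes. Without control animal 1 and 48 h animal 1 the shares were 21.2% above and 12.1% below, against 18.7% and 15.7%. Intraflagellar transport models, which carry cargo along cilia, were higher in 19 of 22. BSL78_01347 among them had 2.06, 2.03 and 1.47 FPKM in the controls and 9.12, 12.1 and 3.35 at 48 h. CFAP99 BSL78_12128, a protein of the ciliary axoneme, had 0 in all controls and 9.74, 1.82 and 1.62 at 48 h. Axonemal dynein heavy chain 7 BSL78_03704, a motor of the same structure, was below control, with 1.82, 1.3 and 1.54 FPKM in the controls and 0, 0 and 0.412 at 48 h. DNA replication and cell cycle genes had 67 of 102 tested members higher and 35 lower, with a median of 0.15 that became 0.05 without 48 h animal 1. Of these 9 (8.82%) lay above control and 1 (0.98%) below, against 5.84% and 4.85% of all genes. Without control animal 1 and 48 h animal 1 the shares were 17.6% and 10.8%, against 18.7% and 15.7%, and the median was 0.01. The replication complex protein PSF3 BSL78_23716 had 0 in all controls and 6.9, 1.55 and 1.84 FPKM at 48 h. The spindle checkpoint protein MAD1 BSL78_18728 had 11.4, 8.93 and 12.2 FPKM in the controls and 38.5, 23.5 and 23.4 at 48 h.

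The remaining lists, other than yolk proteins and ferritin, had medians near 0. Members higher and lower were 15 and 19 for mitochondrial chaperones and proteases, 21 and 30 for the proteasome, 65 and 55 for ubiquitin ligases, and 31 and 34 for antioxidant and glutathione enzymes. They were 79 and 58 for cytochrome P450 and transferases, 28 and 22 for glycolysis and the citrate cycle, 36 and 38 for oxidative phosphorylation, and 52 and 41 for mitochondrial ribosomal proteins. They were 59 and 76 for translation factors and tRNA ligases, 33 and 43 for ABC transporters, 11 and 12 for stress transcription factors, 5 and 5 for histones, 32 and 52 for mobile elements, and 5 and 10 for yolk proteins and ferritin. Apart from the last, whose median was -0.79, but -0.16 without control animal 1 and -1.21 without control animal 2, these medians lay between -0.13 and 0.17. Without control animal 1 and 48 h animal 1, 22 of 51 proteasome members (43.1%) lay below control without overlap and 4 (7.84%) above. The shares over all genes were then 15.7% and 18.7%. Below and above were 32.4% and 17.6% of mitochondrial chaperones and proteases, and 28.1% and 14.8% of translation factors and tRNA ligases. For cytochrome P450 and transferases they were 12.4% and 27.7%. Glycolysis and the citrate cycle had 6 of 50 members (12%) above control without overlap and 1 (2%) below, against 5.84% and 4.85% of all genes. Among their members, isocitrate dehydrogenase, which makes NADPH or NADH in the citrate cycle, was higher in 7 of 8 models, and BSL78_10557 had 0.774, 0.183 and 2.09 FPKM in the controls and 6.98, 2.88 and 5.36 at 48 h. Multidrug resistance-associated protein 7 BSL78_21373, an ABC exporter, had 2.7, 2.69 and 4.2 FPKM in the controls and 8.78, 17.5 and 16.7 at 48 h. Glutathione S-transferase alpha-4 BSL78_21162, which conjugates toxic products to glutathione, was below control, with 52.4, 83 and 30.7 FPKM in the controls and 6.22, 15.8 and 13.3 at 48 h. Aspartate tRNA ligase BSL78_05173, which charges tRNA for translation, was below it too, with 19.1, 26.7 and 22.1 FPKM in the controls and 3.94, 8.7 and 10.8 at 48 h.

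**Figure D5:**
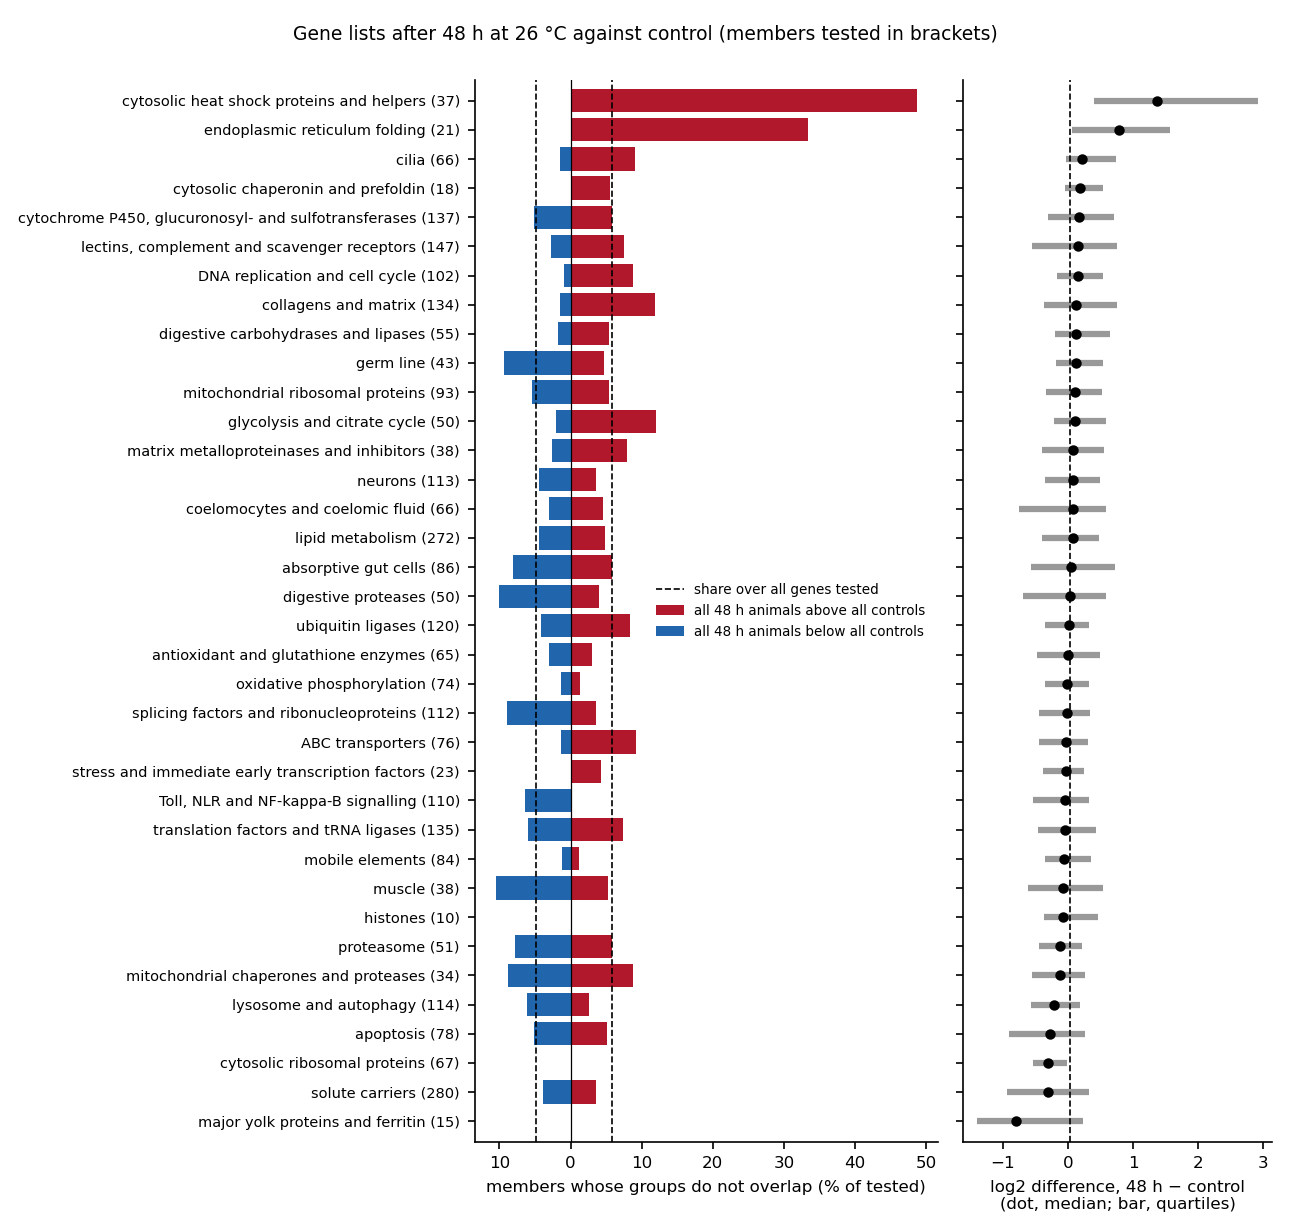
Left, the percent of tested members of each of 36 lists whose 48 h animals all lie above (red) or below (blue) all controls, with dashed lines at the shares over all genes, 5.84% and 4.85%. Right, the median log2 difference of each list with its quartiles; the heat shock and endoplasmic reticulum lists stand apart at the top, the yolk list lies lowest at -0.79 (-0.16 without control animal 1) and the others gather near 0.

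Some models had reads in a single group. Reads in all 48 h animals and none in the controls were found for 104 models, 61 of them named, and the reverse for 93 models, 36 of them named. A floor of 3 reads in each library that had none was used for bounds on folds. Ryncolin-1-like BSL78_07409, of the fibrinogen-domain family, had 24.4, 0.179 and 1.76 FPKM at 48 h, at least 12.1-fold higher, but rested mostly on 48 h animal 1. Echinoidin BSL78_24709, a lectin first known from a sea urchin, had 38.3, 0.755 and 7.06 FPKM, at least 10.1-fold higher. Ependymin-related BSL78_06755 had 4.08, 0.611 and 36.7, at least 11.2-fold higher. Those 3 models were very uneven among the warm animals. Fibrinogen C domain protein BSL78_23225 was more even, with 1.15, 4.17 and 1.15 FPKM. In the other direction, a model with an RNA polymerase Rpb1 repeat, BSL78_26417, had 12.7, 7.71 and 0.247 FPKM in the controls, at least 28.6-fold higher than at 48 h. Receptor-type tyrosine phosphatase alpha-like BSL78_09703 had 5.8, 0.458 and 3.92 FPKM, at least 2.28-fold higher than at 48 h. All of these were low in at least 1 animal of the group that had reads.

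Set directly against the 6 h animals, the 48 h animals were lower in 2 genes that passed limma's test and higher in 0 (0.0107% and 0%). At an unadjusted p under 0.05 they differed in 1313 genes (7.01%), higher in 766 (4.09%) and lower in 547 (2.92%). IMD-like protein BSL78_12555, named after an adaptor of insect immune signalling, fell from 72.8, 199 and 58.1 FPKM at 6 h to 0 in all 48 h animals, a fitted log2 difference of -6.58, which is no bound on the fold, with an adjusted p of 0.000161. All controls were at 0 as well. A hypothetical protein, BSL78_09881, whose name was outside the rule for named genes and was chosen after its values were seen, fell from 2572, 1606 and 1981 FPKM at 6 h to 94.4, 181 and 170.3 at 48 h, by 3.81 on the log2 scale (adjusted p 0.042). Its controls, at 107, 189.5 and 128 FPKM, overlapped with the 48 h animals, and the 48 h minus control interval ran from -1.07 to 1.17. The call for BSL78_12555 was lost when only the 6 libraries of both groups were fitted, as was that for BSL78_09881, which was also lost with a pseudocount of 0.1, under scaling to a common sum or by quantiles, with the animal number as a block and in 11 of 12 fits without 1 library.

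Beside BSL78_09881 on the same scaffold lies Hsp56 BSL78_09882, the mitochondrial chaperonin, which folds imported proteins. It had 47.4, 123 and 102 FPKM in the controls, 1059, 925 and 1328 at 6 h and 140.1, 170.3 and 165 at 48 h. The 48 h animals lay a little above the highest control (log2 difference 0.90, SE 0.61, 95% interval -0.40 to 2.20) and far below the 6 h animals (-2.78, adjusted p 0.372). Some genes that were low at 6 h stood nearer control at 48 h. The hnRNP L model BSL78_06952, a splicing regulator, had 23.4, 21.9 and 20.6 FPKM in the controls, 1.57, 0 and 1.13 at 6 h and 10.04, 9.55 and 11.1 at 48 h. All 48 h animals lay between both groups, and the 48 h minus 6 h difference was 2.67 (adjusted p 0.372). Monocarboxylate transporter 6 BSL78_15659, named for the transport of small organic acids, had 11.7, 17.9 and 11.7 FPKM in the controls, 0, 1.01 and 1.11 at 6 h and 10.4, 6.8 and 7.12 at 48 h in the same order. Arylsulfatase J-like BSL78_28848, of a family that removes sulfate groups, had 40.5, 6.96 and 10.9 FPKM in the controls, 0, 0 and 0.921 at 6 h and 20.8, 14.2 and 12.6 at 48 h. Centromere protein X BSL78_07049 had 9.12, 9.08 and 12.3 FPKM in the controls, 0 in all 6 h animals and 22.2, 3.7 and 17.3 at 48 h. In both of the last, 48 h animals overlapped with the controls. Neogenin-like BSL78_08181, a membrane receptor, was higher at 6 h, at 54.9, 54.3 and 27.8 FPKM, than at 48 h, at 1.57, 2.64 and 5.48, and had 13.3, 6.17 and 9.18 in the controls, so that the warm animals at 48 h were below both groups (adjusted p 0.143 against 6 h and 1 against control).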

How the data were processed

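Total RNA of each animal's intestine was made into mRNA libraries and sequenced on an Illumina HiSeq, per the labels' protocols. The deposited table holds FPKM for 30221 gene models, computed by the authors, and the aligner, counter, build and strand setting are not given in the sources used here. Every FPKM times the gene length was a whole multiple of 1 step per library (100% of values, tolerance 0.05), which gave the reads on genes. Those reads, at 3 per library, set the floor of 0.394 to 1.58 FPKM for a gene of 1 kb in the 6 libraries compared, and cover counting error only. The lengths in the table were multiples of 3 in 94.0% of models and are coding lengths.

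Differences between groups of the authors' deposited values, as log2(FPKM + 1), were fitted by limma 3.58.1 (R 4.3.3) for the 18729 genes whose mean over 12 libraries reached 0.5 FPKM. All 4 groups of 3 shared 1 estimate of the spread, and p-values were adjusted by Benjamini-Hochberg over all genes. Shares of reads were compared by exact two-sided permutation over animals. Tables and plots used Python 3.11.15, pandas 2.3.3 and matplotlib 3.10.9, and the fitting code was tested on simulated data.

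The comparison, the 36 gene lists and the genes named were chosen with earlier results of these data known. Named genes were the 15 of smallest p in each direction without overlap, the 4 of smallest p in each list, genes called at 6 h, the 10 with the largest share of reads, 6 with reads in a single group for each direction, the 10 of smallest p in each direction against 6 h, and the 10 with the narrowest intervals. Not every gene that this rule allows is reported here. Some share a description with models that went the other way. Glucose-6-phosphate 1-epimerase, fatty acid desaturase 6 and interleukin 17, for example, each had 1 tested model higher and 1 lower at 48 h. The reference table matched 0 of the identifiers, so gene names are those of the deposited table and no sequence is shown. Alternatives were other pseudocounts, filters and scalings, voom on the reads, array weights, an animal number block and leaving out single animals.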

Additional observations from a re-analysis of the deposited data

Results flagged for a closer look

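In 2 genes the 48 h animals differed from the 6 h animals in the direct contrast of the 2 times, each by limma's adjusted p. IMD-like protein BSL78_12555 had a 48 h minus 6 h difference of -6.58 on the log2(FPKM + 1) scale (adjusted p 0.000161), with 72.8, 199 and 58.1 FPKM in the 6 h animals and 0 in all 48 h and control animals. It was lower in 3 of 3 warm animals at 48 h than in every animal at 6 h. The hypothetical protein BSL78_09881 had a difference of -3.81 (adjusted p 0.042), with 2572, 1606 and 1981 FPKM at 6 h and 94.4, 181 and 170.3 at 48 h, again lower in 3 of 3. The adjusted p of BSL78_09881 ranged over the alternatives from 0.00294 to 0.250 and that of BSL78_12555 from 4.76e-05 to 0.222. Causes were not tested.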

How the results depend on the processing

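The count of genes past limma's adjusted p at 48 h against control, 0 as reported, was 1 under scaling to a common sum and 1 with the animal number as a replicate block, both times histamine N-methyltransferase A BSL78_25642 (adjusted p 0.0391 and 0.0239). Leaving out 1 animal gave 0 to 1: BSL78_28041, a hypothetical protein, without control animal 1 (log2 difference 8.50, adjusted p 0.00684) and LVN1.2 BSL78_07316 without 48 h animal 3 (-6.40, adjusted p 0.0340). The count at 48 h against 6 h, 2 as reported, was 4 with a pseudocount of 0.1, 1 under quantile scaling, 0 with only the groups compared, 1 with the replicate block, 1 without the animals of fewest genes detected (chosen after seeing the data), and 1 to 4 without 1 animal. It was 4 without 6 h animal 2 and without animal 3 of the group at 30 °C for 6 h. The cause was not tested. The 48 h minus control difference in genes detected at a common depth, 885 over all animals, was -12.3 to 1809 without 1 animal, and -12.3 without control animal 1. Numbers did not pair the animals: residuals of control and 48 h animals with the same number correlated at -0.0087 to 0.0483, and 1 of 3 controls correlated best with its own number. Over 200 named genes and 4525 values under the alternatives, the sign changed in 84, and 3 values were called.

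The median heat shock difference was positive under all alternatives run, from 0.98 with a pseudocount of 5 to 1.54 under scaling to a common sum. Scaling to a common sum moved the median of all genes from 0.03 to 0.16. The heat shock share of reads differed by 0.242 percentage points as a share of summed FPKM and by 0.380 without its most abundant member, and the exact sign-flip p over numbered pairs was 0.25, the smallest 3 pairs allow. edgeR and DESeq2, planned for recovered reads, were not run. With 3 animals a group, 2-fold differences could not be bounded for any gene.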

Other observations

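Other families of models with a shared description, chosen after their values were seen, leaned one way with few members apart from control. Titin, the giant spring protein of muscle, had 4 of 20 tested models higher and 16 lower at 48 h, and 3 of them lay below control without overlap, against 4.85% of all genes. The muscle list that holds these models had 18 of 38 tested members higher and 20 lower, with a median of -0.07. Without control animal 1 and 48 h animal 1 that median was 0.37. Then 15 muscle members (39.5%) lay above control without overlap and 7 (18.4%) below, against 18.7% and 15.7% of all genes. With all animals the muscle share of reads overlapped between the groups, at 0.246, 0.323 and 0.274% in the controls and 0.268, 0.473 and 0.685% at 48 h. Alpha-1,3-fucosyltransferase A, which adds fucose to glycoproteins, had 19 of 22 higher, and 3 lay above control without overlap, against 5.84%. Neither family had a gene that passed limma's test, and how reads were divided between models of a family is not known.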
